A study of Mus musculus with 6 samples.

Results

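The 10 genes described here encode neutrophil granule proteins and the S100 alarmins of the neutrophil cytosol: S100a8, S100a9, Ngp, Camp, Ltf, Lcn2, Elane, Mpo, Prtn3 and Ctsg. They were looked up by name in the authors' table of scaled RNA fragment counts from mouse spleen. Each of the 10 names had 1 locus, among 44794 loci with a gene name. The table holds 6 spleen libraries, and every mouse had been given imiquimod, which activates TLR7, at 3 doses a week over 4 weeks. In 3 libraries the mice were B6.Sle1b, an autoimmune-prone line that carries the Sle1b lupus susceptibility interval. In the other 3 they were Sle1b.IFNγR-/-, the same autoimmune-prone line made deficient in the interferon-γ receptor. Both groups thus carry Sle1b and the imiquimod treatment, and no untreated group is analysed here. The labels do not name the disrupted receptor subunit, the ages of the mice, or whether each library is a separate animal. The p-values therefore rest on how far these libraries vary, which may be technical. The study was made to ask how interferon-γ drives autoreactive B cells toward antibody-forming and germinal centre fates, and the neutrophil genes are read from the same transcriptomes.

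Neutrophils build their granules in sequence while they mature. Primary, or azurophil, granules form first, in promyelocytes, and hold myeloperoxidase and the serine proteases neutrophil elastase, proteinase 3 and cathepsin G. Secondary, or specific, granules follow in myelocytes and metamyelocytes and hold lactoferrin, cathelicidin, neutrophilic granule protein and lipocalin 2. S100A8 and S100A9 form calprotectin, an abundant cytosolic complex of mature neutrophils and some monocytes that acts as an alarmin when released. The mouse spleen can hold mature neutrophils as well as sites of granulocyte production, so transcripts of every stage may be present. In bulk tissue, fewer cells of a type and less RNA per cell cannot be told apart.

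The members sit on 6 chromosomes (GRCm38, GENCODE release 21). S100a8 (chromosome 3, 90668978 to 90670035, plus strand) and S100a9 (90692632 to 90695721, minus strand) lie 22.6 kb apart. Prtn3 (chromosome 10, 79874476 to 79883174, plus strand) and Elane (79886247 to 79888215, plus strand) are separated by 3.1 kb. Chromosome 9 holds Camp (109847379 to 109849617, minus strand), Ngp (110419747 to 110423012, plus strand) and Ltf (111019271 to 111042767, plus strand). Ngp lies 570.1 kb from Camp and 596.3 kb from Ltf. Lcn2 is on chromosome 2 (32384633 to 32388252, minus strand), Mpo on chromosome 11 (87793581 to 87804413, plus strand) and Ctsg on chromosome 14 (56099881 to 56102574, minus strand). Mpo overlaps Gm11505 and Prtn3 overlaps Plppr3 in the annotation. The strand setting of the counting is not given, so reads of these overlapping genes cannot be told apart. At 7 of the loci the authors' table also holds transcripts assembled from the reads. Those of S100a9, Camp and Elane hold annotated transcripts only.

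The promoter windows of Ngp, Lcn2, Mpo and Ctsg are shown because these are the 2 secondary and the 2 primary granule genes with enough signal to be tested in these libraries. Each window runs from 250 bases before to 50 after the RefSeq transcription start (GRCm38.p6), 5′ to 3′ on the strand of the gene: Ngp at chr9:110419558-110419857 (plus), Lcn2 at chr2:32387690-32387989 (minus), Mpo at chr11:87793534-87793833 (plus) and Ctsg at chr14:56102525-56102824 (minus). Capitals mark matches, on either strand, to GAGGAA (the core bound by PU.1, the master regulator of myeloid cells), TTGCNNAA (bound by C/EBP factors of granulocytes) or TGACTCA (AP-1). No match overlapped another in these 4 windows.
Ngp: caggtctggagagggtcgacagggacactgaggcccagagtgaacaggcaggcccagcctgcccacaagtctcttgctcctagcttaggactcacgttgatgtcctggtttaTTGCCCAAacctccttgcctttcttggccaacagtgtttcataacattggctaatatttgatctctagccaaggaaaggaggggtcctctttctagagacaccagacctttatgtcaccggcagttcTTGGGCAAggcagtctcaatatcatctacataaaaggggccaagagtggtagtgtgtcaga
Lcn2: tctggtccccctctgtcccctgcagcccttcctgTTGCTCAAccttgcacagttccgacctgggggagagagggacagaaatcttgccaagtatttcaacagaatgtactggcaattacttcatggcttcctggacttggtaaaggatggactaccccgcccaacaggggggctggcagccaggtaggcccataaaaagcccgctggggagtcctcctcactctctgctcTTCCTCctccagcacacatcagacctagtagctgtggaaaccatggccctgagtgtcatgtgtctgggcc
Mpo: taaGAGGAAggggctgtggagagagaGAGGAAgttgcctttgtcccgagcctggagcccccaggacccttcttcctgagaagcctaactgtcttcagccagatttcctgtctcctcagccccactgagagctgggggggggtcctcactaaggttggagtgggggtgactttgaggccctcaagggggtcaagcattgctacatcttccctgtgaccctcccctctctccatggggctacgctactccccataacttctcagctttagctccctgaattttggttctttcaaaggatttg
Ctsg: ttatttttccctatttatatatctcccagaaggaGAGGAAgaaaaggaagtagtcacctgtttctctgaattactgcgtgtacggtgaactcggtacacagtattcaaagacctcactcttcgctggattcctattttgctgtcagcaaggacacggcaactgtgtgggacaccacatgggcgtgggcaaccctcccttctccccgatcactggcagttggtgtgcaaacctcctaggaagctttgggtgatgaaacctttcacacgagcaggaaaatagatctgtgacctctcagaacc

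All 10 members had a window in the RefSeq promoter table. GAGGAA was found in 7 of the 10 windows and in 28.3% of all 32851 windows of that length. It was present for each of the 4 primary granule genes, and for S100a8, Ltf and Lcn2. TTGCNNAA was found in 4 of the 10 windows, those of S100a9, Ngp, Ltf and Lcn2, and in 10.8% of all windows. Ngp held 2 such matches, and no primary granule window held one. TGACTCA was in 0 of the 10 and in 5.2% of all. These matches describe letters in the windows and do not show binding.

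The libraries were first compared as a whole. Scaled counts corresponded to between 4394283 and 6349828 fragments per library. Named loci held 27.0% of the scaled counts in B6.Sle1b replicate 1 and 17.5% to 19.95% in the others. Over 31 ribosomal protein genes, B6.Sle1b replicate 1 stood at 3.18 times the geometric mean of all libraries, while the other 5 stood at 0.754 to 0.988 of it. That library therefore stands apart, and the differences of the tested members and the medians of the gene lists are also given without it. Ifngr1, the ligand-binding chain of the receptor, was at 81.5, 34.5 and 63.7 scaled counts in B6.Sle1b, against 43.7, 21.4 and 24.0 in the receptor-deficient libraries, with overlapping ranges. Because a targeted gene can still be transcribed, this level does not check the genotype labels.

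The members together made up a small part of each library. They held 1606 fragments over the 6 libraries, and all 60 values were whole fragments within 0.01. Their summed scaled count was 496, 239 and 185 in B6.Sle1b replicates 1 to 3, against 219, 227 and 214 in the receptor-deficient libraries, given here and below in the order of the replicates. Group means came to 307 ± 166 and 220.0 ± 6.41 (SD, n = 3 each), and the groups overlapped (two-sided exact permutation p = 0.7, where 3 against 3 libraries allow 0.1 at the least). Per 1000000 scaled counts at named loci the sum was 320.1, 262 and 178, against 218, 218 and 207. On either scale the 3 receptor-deficient libraries lay close together, inside the range of the B6.Sle1b libraries.

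The level of each member per kilobase of annotated exon was set beside 1589 olfactory, vomeronasal and trace-amine receptor genes, which spleen is not known to use. Those genes had a median of 1.78 scaled counts per kb and a 95th percentile of 15.3. Ctsg was highest, at 49.0 per kb averaged over the 6 libraries. S100a8 followed at 48.8, S100a9 at 45.4, Ngp at 29.5 and Mpo at 20.7, and these 5 lay above the 95th percentile. Lcn2, at 11.3 per kb, lay above 92.6% of the receptor genes. Prtn3 at 2.93, Ltf at 2.80, Elane at 2.34 and Camp at 1.78 were inside the bulk of the receptor genes, with Camp at their middle (above 49.97%). For these 4 members the values are thus no higher than those of many genes not known to be used in spleen. The lengths of assembled transcripts are not in the table, so levels per kb are approximate.

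**Figure D1:**
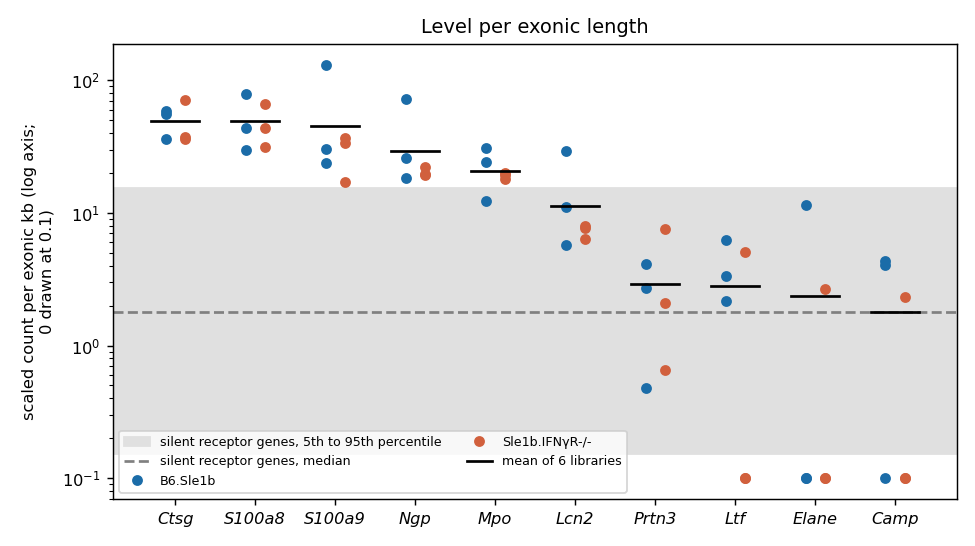
Scaled fragment count per kb of annotated exon (log axis, values of 0 drawn at 0.1) for each member in each library, blue for B6.Sle1b and orange for Sle1b.IFNγR-/-, with the mean of the 6 libraries as a bar. The grey band spans the 5th to 95th percentile of the receptor genes and the dashed line their median of 1.78: Ctsg, S100a8, S100a9, Ngp and Mpo have means above the band, and Prtn3, Ltf, Elane and Camp lie within it.

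Neighbours in this order mostly did not differ beyond their spread. In B6.Sle1b, levels per kb were 50.1 ± 11.99 for Ctsg, 50.7 ± 25.7 for S100a8 and 61.6 ± 59.98 for S100a9 (SD, n = 3 each). In Sle1b.IFNγR-/- they were 48.0 ± 19.7, 46.9 ± 17.3 and 29.1 ± 10.5. The secondary granule gene Ngp (20.3 ± 1.51) and the primary granule gene Mpo (19.1 ± 1.07) were level in Sle1b.IFNγR-/-, while Lcn2 there (7.37 ± 0.857) lay below both in every library. In B6.Sle1b the ranges of Ngp (38.7 ± 28.9), Mpo (22.4 ± 9.42) and Lcn2 (15.3 ± 12.3) overlapped.

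Among the alarmins, S100a8, the smaller subunit of calprotectin, was at 55.0, 20.6 and 30.0 scaled counts in B6.Sle1b, against 21.9, 30.3 and 45.5 in Sle1b.IFNγR-/-. The highest library was B6.Sle1b replicate 1, followed by Sle1b.IFNγR-/- replicate 3, and the groups overlapped widely. The log2 difference, receptor-deficient minus B6.Sle1b on the log2(value + 1) scale, was -0.056 (SE 0.43). Its partner S100a9 was at 68.3, 12.3 and 15.9 in B6.Sle1b, against 17.5, 8.99 and 19.2 in Sle1b.IFNγR-/-. Here B6.Sle1b replicate 1 alone was high, and the other 5 libraries lay together. The S100a9 difference of -0.69 (SE 0.60) became 0.045 (SE 0.59) without that library, and that of S100a8 became 0.32 (SE 0.43).

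Although the proteins pair, the measured ratio of their transcripts differed between libraries. S100a9 held 67 fragments in B6.Sle1b replicate 1 but only 8 to 20 in each other library. Its 8 fragments in Sle1b.IFNγR-/- replicate 2 had a Poisson interval of 3.45 to 15.8 fragments. Whether the ratio varied beyond counting error was not tested. The log2 ratio of S100a8 to S100a9 was -0.31, 0.69 and 0.87 in B6.Sle1b, against 0.31, 1.65 and 1.21 in the receptor-deficient libraries. The groups overlapped and their means differed by 0.63 (exact permutation p = 0.4). The difference was 0.27 without B6.Sle1b replicate 1, 0.34 without Sle1b.IFNγR-/- replicate 2 and 1.01 without Sle1b.IFNγR-/- replicate 1. The ratio was lowest in B6.Sle1b replicate 1, which also had the highest alarmin sum, 123 scaled counts against 32.9 to 64.7 elsewhere.

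Of the secondary granule genes, Ngp, a cathelicidin-like protein of specific granules, was at 87.6, 22.2 and 31.9 scaled counts in B6.Sle1b, against 23.6, 27.0 and 24.0 in Sle1b.IFNγR-/-. Lcn2, which withholds iron from bacteria by binding their siderophores, had 76.4, 28.8 and 15.0 against 20.99, 20.2 and 16.8. In both genes B6.Sle1b replicate 1 stood far above every other library, and the other 5 overlapped. The log2 difference was -0.66 (SE 0.46) for Ngp and -0.72 (SE 0.51) for Lcn2, and -0.098 and -0.11 without B6.Sle1b replicate 1.

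Ltf, the iron-binding lactoferrin, was at 21.4, 11.5 and 7.5 in B6.Sle1b, against 17.5, 0 and 0 in Sle1b.IFNγR-/-. A count of 0 allows up to 3 fragments, or 3.37 and 3.59 scaled counts in those 2 libraries. The group means were 13.5 ± 7.15 and 5.83 ± 10.1 (SD, n = 3 each), and the one Sle1b.IFNγR-/- library with Ltf, at 20 fragments, lay inside the B6.Sle1b range (exact permutation p = 0.3). Camp, the precursor of the antimicrobial peptide CRAMP, had 3.06, 3.29 and 0 against 1.75, 0 and 0, or 9 fragments in all. At that depth a difference in Camp was not detectable.

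Of the primary granule genes, Mpo, which makes hypochlorous acid from hydrogen peroxide, had the highest scaled counts: 106, 82.2 and 42.2 in B6.Sle1b, against 61.2, 66.3 and 68.3 in Sle1b.IFNγR-/-. The receptor-deficient libraries lay close together in the middle of the B6.Sle1b range. The log2 difference was -0.14 (SE 0.35), and 0.14 without B6.Sle1b replicate 1. Ctsg, the chymotrypsin-like cathepsin G, had 60.1, 57.5 and 37.5 against 38.5, 73.0 and 37.1. Its log2 difference was -0.10 (SE 0.36), or 0.020 without B6.Sle1b replicate 1, and its highest library was Sle1b.IFNγR-/- replicate 2.

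The other 2 proteases were far lower. Elane, neutrophil elastase, was at 11.2, 0 and 0 in B6.Sle1b, against 2.62, 0 and 0 in Sle1b.IFNγR-/-, which is 11 fragments in 1 library (exact Poisson 95% interval 5.49 to 19.7, counting error only) and 3 in another. Prtn3, proteinase 3, its neighbour on chromosome 10, had 7.13, 0.822 and 4.69 against 13.1, 1.12 and 3.59. Its highest library was Sle1b.IFNγR-/- replicate 1, at 15 fragments, followed by B6.Sle1b replicate 1, at 7. These were also the only 2 libraries with Elane fragments. Their order differed between the neighbours, but the Poisson 95% intervals of Prtn3 overlapped (8.40 to 24.7 and 2.81 to 14.4 fragments).

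**Figure D2:**
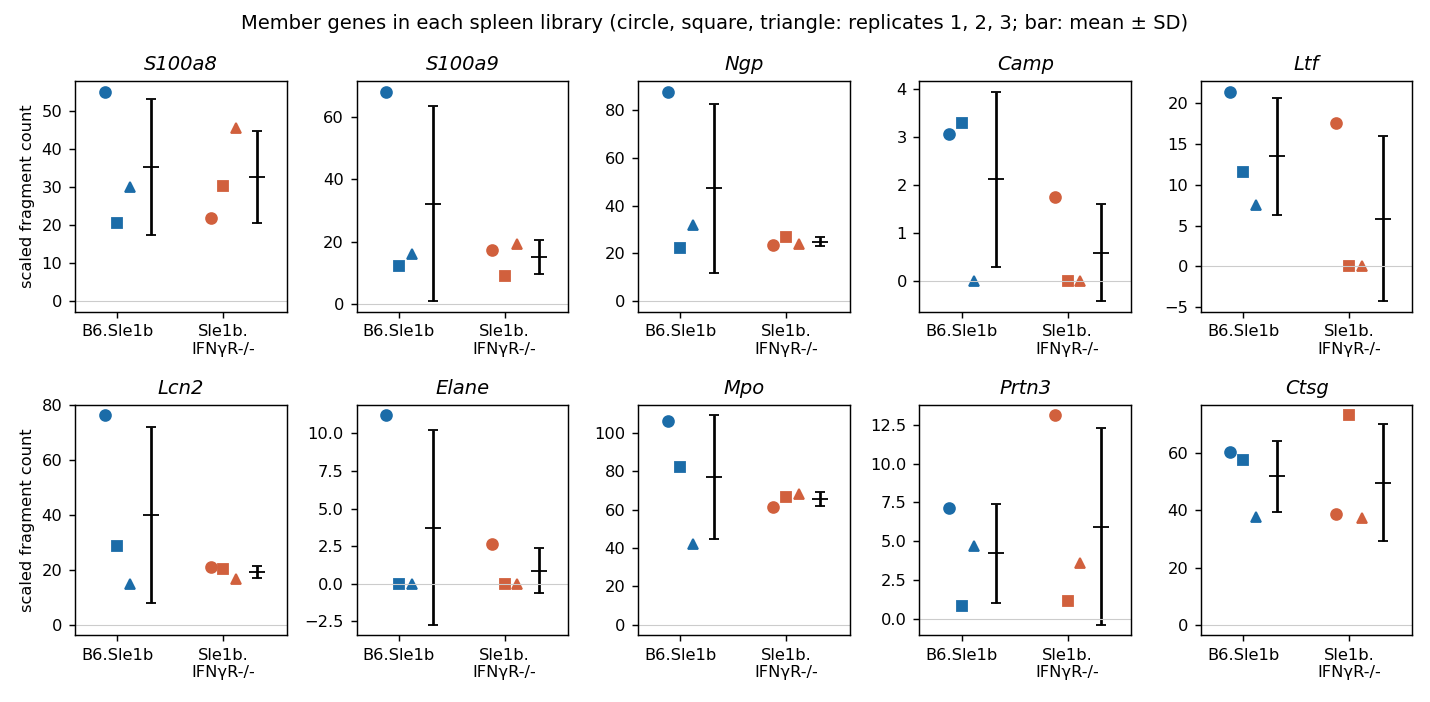
Scaled fragment count (linear axes, one for each gene) of each member in each library, with replicates 1, 2 and 3 as circle, square and triangle and the group mean ± SD beside them. B6.Sle1b replicate 1 is the highest point in 7 of the 10 panels, and the 2 groups overlap in all 10.

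Across the table, no member and no other gene passed the genotype test. Of the 10 members, 6 reached the mean of 10 scaled counts needed for it: S100a8, S100a9, Ngp, Lcn2, Mpo and Ctsg. Over 19227 named loci, limma's adjusted p was under 0.05 for 0 members and for 0 loci in all (0%), and unadjusted p was under 0.05 for 0 of the 6 members and 596 loci (3.10%), of which 399 were lower in Sle1b.IFNγR-/- (2.08%, members 0). The count of loci with adjusted p under 0.05 was 5 without B6.Sle1b replicate 1, 5 without B6.Sle1b replicate 2 and 0 without any other single library. It was 8 with the ribosomal level added as a covariate, and no member was among the loci called. The adjusted p of each of the 6 was 0.99976 in limma with Benjamini-Hochberg adjustment. In none of the 6 were the groups free of overlap, against 5.19% of all loci with every receptor-deficient library lower and 3.51% with every one higher. All 6 differences were below 0, as were 58.1% of all loci. The median was -0.40 against -0.083 over all loci tested. Without B6.Sle1b replicate 1, 2 of the 6 were below 0 (all loci 48.4%) and the median was 0.032.

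**Figure D3:**
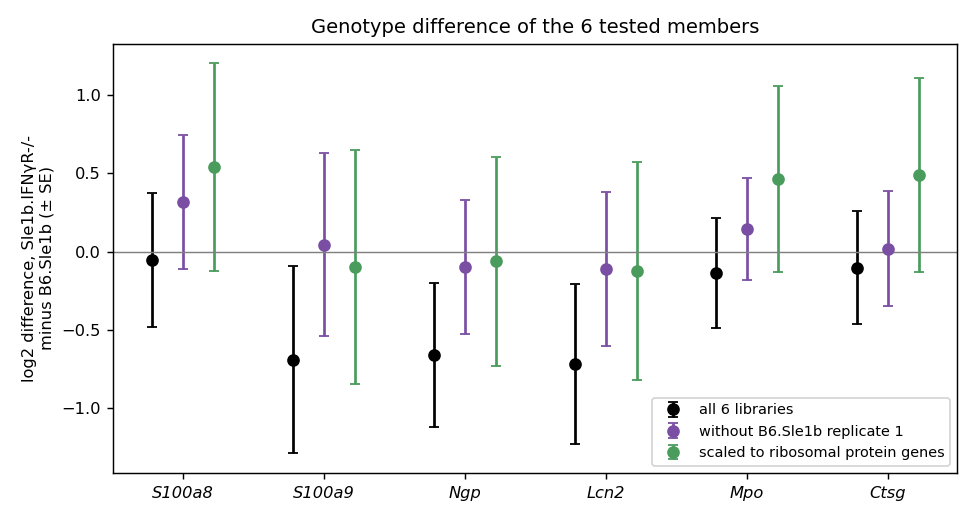
Log2 difference (Sle1b.IFNγR-/- minus B6.Sle1b, points, with SE bars) of the 6 tested members with all libraries, without B6.Sle1b replicate 1, and after scaling to ribosomal protein genes. With all libraries S100a9, Ngp and Lcn2 lie between -0.72 and -0.66, and without B6.Sle1b replicate 1 all 6 lie between -0.11 and 0.32.

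For the 4 members under that mean, the same fit with no filter, over 35092 loci, gave log2 differences of -2.34 (SE 1.04) for Ltf, -0.89 (SE 0.81) for Camp, -0.58 (SE 0.93) for Elane and 0.24 (SE 0.96) for Prtn3. Ltf had an unadjusted limma p of 0.036 and an adjusted p of 0.964, and the others had adjusted p of 0.964 or above. A fitted difference of a gene with values at 0 depends on the pseudocount.

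B6.Sle1b replicate 1 was the highest library for 5 of the 6 tested members, against 37.9% of all loci tested. Its excess was uneven. Over the geometric mean of the 6 libraries, taken on value + 1, it was 3.52-fold for S100a9, 2.98-fold for Lcn2 and 2.73-fold for Ngp, near the ribosomal level of that library (3.18). It was 1.71-fold for S100a8, 1.54-fold for Mpo and 1.23-fold for Ctsg. The part of that library's RNA level in these values was not tested. With the ribosomal protein genes as the basis of scaling, the differences were -0.099 for S100a9, -0.063 for Ngp and -0.13 for Lcn2, and 0.54, 0.46 and 0.49 for S100a8, Mpo and Ctsg. The median of all loci tested was then 0.49.

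Ratios within a library depend on scaling only through the pseudocount. The mean log2(value + 1) of the 4 primary minus that of the 4 secondary granule genes was 0.015, -0.52 and 0.27 in B6.Sle1b, against 0.55, 1.04 and 1.19 in the receptor-deficient libraries. Every receptor-deficient library lay above every B6.Sle1b library. Group means came to -0.077 ± 0.40 and 0.93 ± 0.34 (SD, n = 3 each), a difference of 1.00, and the exact permutation p of 0.1 is the smallest the design allows. With a pseudocount of 10 the difference was 0.42, still at p = 0.1 in the exact permutation test. This ratio takes in Camp, Ltf, Elane and Prtn3, which hold few fragments. The largest log2 difference among its genes was that of Ltf (-2.34), which had 0 fragments in Sle1b.IFNγR-/- replicates 2 and 3. How far the separation rests on Ltf was not tested. For Mpo and Ctsg over Ngp and Lcn2, a choice made after the values were seen, the ratio was -0.035, 1.41 and 0.83 in B6.Sle1b, against 1.09, 1.53 and 1.29. There the groups overlapped, with a difference of 0.57 (exact permutation p = 0.3), or 0.18 without B6.Sle1b replicate 1.

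**Figure D4:**
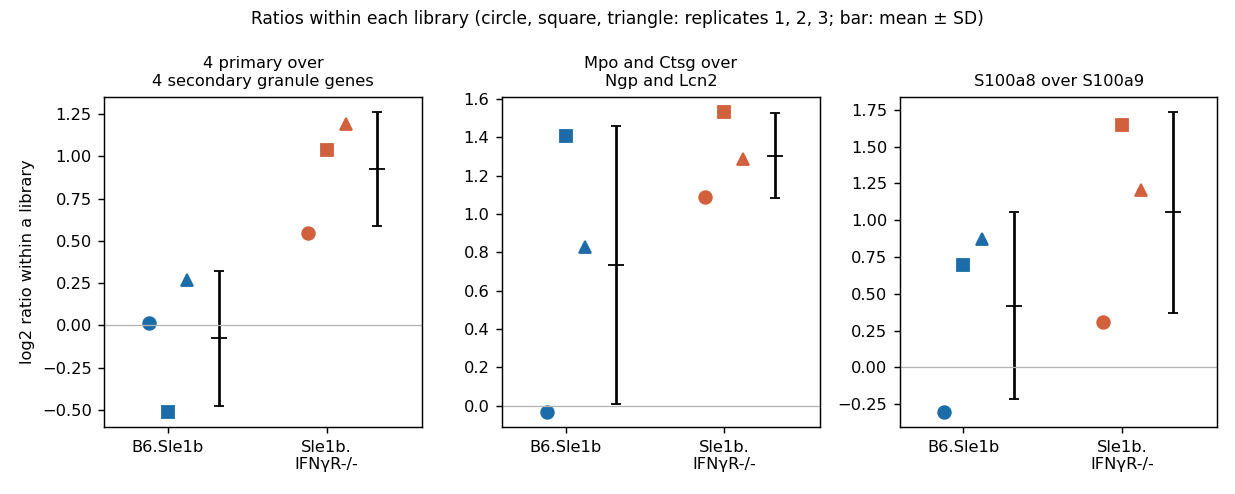
Log2 ratio within each library, with replicates 1, 2 and 3 as circle, square and triangle and the mean ± SD beside them, for the 4 primary over the 4 secondary granule genes, for Mpo and Ctsg over Ngp and Lcn2, and for S100a8 over S100a9. The groups separate in the first panel, where the receptor-deficient libraries lie between 0.55 and 1.19, and overlap in the other panels.

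As shares of the summed scaled count of the 10 members, which weight genes by their length and level, Mpo took 26.2% ± 7.12 in B6.Sle1b, against 29.7% ± 1.97 in Sle1b.IFNγR-/- (SD, n = 3 each). In the same order of groups Ctsg took 18.8% ± 6.11 and 22.4% ± 8.5, Ngp 14.7% ± 4.73 and 11.3% ± 0.549, S100a8 11.97% ± 3.90 and 14.9% ± 5.76, and Lcn2 11.8% ± 3.64 and 8.78% ± 0.897. S100a9 made up 9.18% ± 4.33 and 6.97% ± 2.65. No share separated the groups with all libraries, while 2 did without B6.Sle1b replicate 2, 1 without B6.Sle1b replicate 3 and 1 without Sle1b.IFNγR-/- replicate 1. With 2 against 3 libraries a separated share has an exact permutation p of 0.2. Separations among 10 members can thus arise without a genotype effect. With all libraries every share had an exact permutation p of 0.3 or above and an adjusted p of 0.778 or above over the 10 members. The share of Mpo was lowest in B6.Sle1b replicate 1 (21.4%) and highest in B6.Sle1b replicate 2 (34.4%). The primary granule sum per 1000000 scaled counts at named loci was 119, 154 and 81.5 against 115, 135 and 105, while the secondary sum was 122, 71.9 and 52.5 against 63.8, 45.2 and 39.3 (exact permutation p = 1 and 0.2).

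Other genes of the same cells were read from fixed lists. Directions are those of the deposited scaling. Ribosomal scaling, which moved the median of all loci from -0.083 to 0.49, put the median of each list in this and the next paragraphs on neutrophil, monocyte, progenitor and other granulocyte genes at 0.26 to 0.80. Of 10 further primary granule genes, 8 were tested, 6 were lower and 2 higher in Sle1b.IFNγR-/-, and 0 passed, with a median log2 difference of -0.28. The 2 of smallest p were Srgn, the granule proteoglycan serglycin (74.2 ± 64.2 against 29.1 ± 14.2), and Ctsc, which activates the granule proteases (89.6 ± 98.9 against 34.1 ± 5.95, SD, n = 3 each). Without B6.Sle1b replicate 1 the median of this list was 0.083, with Srgn at -0.31 and Ctsc at 0.055. Of 14 further secondary and tertiary granule genes, 10 were tested, 6 were lower and 4 higher, and 0 passed, with a median of -0.23, or 0.21 without that library. Cybb, the catalytic subunit of the NADPH oxidase, had the smallest p among them, at 418, 56.7 and 123 against 70.8, 62.9 and 75.5, followed by the integrin gene Itgam (93.0 ± 66.7 against 49.3 ± 7.81). In both genes B6.Sle1b replicate 1 was the highest library, and without it the differences were -0.26 for Cybb and -0.14 for Itgam.

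Genes of mature neutrophils gave a mixed picture. Of 26 loci, 15 were tested, 9 were lower and 6 higher, 0 passed, and the median was -0.054 with and -0.039 without B6.Sle1b replicate 1. Cxcr2, the chemokine receptor that draws neutrophils from marrow, was at 90.7, 69.1 and 80.6 in B6.Sle1b, against 51.6, 66.3 and 58.7 in Sle1b.IFNγR-/-. It was the only tested gene of this list whose groups did not overlap, with a log2 difference of -0.44 (SE 0.29, limma adjusted p = 0.99976) and of -0.34 without B6.Sle1b replicate 1, and with the sign turned by ribosomal scaling (0.16). Pram1, an adaptor protein gene, followed (27.7 ± 19.7 against 11.2 ± 5.85). Ly6g, the standard surface marker of mouse neutrophils and named here after its values were seen, had 20.4, 5.75 and 12.2 against 10.5, 15.7 and 19.2. The stefin A loci Stfa1, Stfa2l1 and Stfa3, named likewise, were listed at 0 in every library. All 12 B cell markers were tested, with a summed level of 1019 to 2456 in B6.Sle1b and 1150 to 1247 in Sle1b.IFNγR-/-. These levels do not tell spleen from other tissues that hold B cells.

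Regulators and inhibitors varied within the spread as well. Of 10 matched granulocyte transcription factors, 5 were tested, 2 were lower and 3 higher, and 0 passed (median 0.19, or 0.018 without B6.Sle1b replicate 1). Runx1, needed for blood stem cell formation, had 147 ± 46.3 against 104 ± 25.2, and Cbfb, its binding partner, 31.2 ± 42.4 against 21.4 ± 9.79. On the log2 scale Cbfb counted as higher (0.98, SE 1.14), since 1 B6.Sle1b library was at 0. The 2 loci of this list at 0 in every library were Cebpd and Cebpe, the latter a driver of secondary granule genes. Of 5 NADPH oxidase subunits, 3 were lower and 2 higher (median -0.34, or 0.15 without B6.Sle1b replicate 1). Rac2, a GTPase of the complex, had 83.0 ± 48.2 against 46.4 ± 10.5, a log2 difference of -0.71, or -0.27 without that library. Of 7 tested inhibitors of the proteases 5 were lower and 2 higher, and the median of -0.17 turned to 0.24 without B6.Sle1b replicate 1. They were led by the cystatin gene Cst3 (54.7 ± 54.3 against 23.0 ± 10.2) and Serpina1a, an inhibitor of elastase (22.9 ± 6.90 against 31.3 ± 10.8). The log2 difference of Cst3 was -0.78 with and 0.018 without that library.

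Signals upstream and receptors downstream of the members were sparse. Of 15 granulopoietic cytokines and neutrophil chemoattractants, 5 were tested, 4 were lower and 1 higher, and 0 passed, and the median of -0.22 turned to 0.081 without B6.Sle1b replicate 1. Cxcl15, a neutrophil chemoattractant, had 23.3, 35.3 and 34.7 against 17.9, 23.1 and 18.0, without overlap (log2 difference -0.62, SE 0.37). Its difference was -0.81 without B6.Sle1b replicate 1 and -0.060 with ribosomal scaling. Il1b, an inflammatory cytokine of myeloid cells, had 66.1 ± 11.01 against 56.97 ± 12.96. Of 8 receptors for the member proteins, 6 were tested, with 3 lower and 3 higher, and the median of -0.087 turned to 0.0077 without B6.Sle1b replicate 1. Lrp2, megalin, an endocytic receptor that binds lactoferrin and lipocalin 2, had 37.7, 55.9 and 32.8 against 14.9, 5.62 and 24.0. Undivided by length, the means of Lrp2 (28.5) and Cxcl15 (25.4) lay below 36.0. That is the 95th percentile of the olfactory, vomeronasal and trace-amine receptor genes. The groups of Lrp2 did not overlap, and its difference of -1.61 (SE 0.49) had an unadjusted limma p of 0.0061 and an adjusted p of 0.99976. It was -1.67 without B6.Sle1b replicate 1 and -1.04 with ribosomal scaling. Tlr4, through which S100A8 and S100A9 signal, had 34.2 ± 20.7 against 22.2 ± 4.30, a log2 difference of -0.43, or 0.0095 without that library. Of 9 loci of other S100 genes, 4 were tested, 1 was lower and 3 higher (median 0.24, or 0.14 without it), and S100a3 and S100a4 shared 1 locus (70.2 ± 8.41 against 89.2 ± 20.0).

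**Figure D5:**
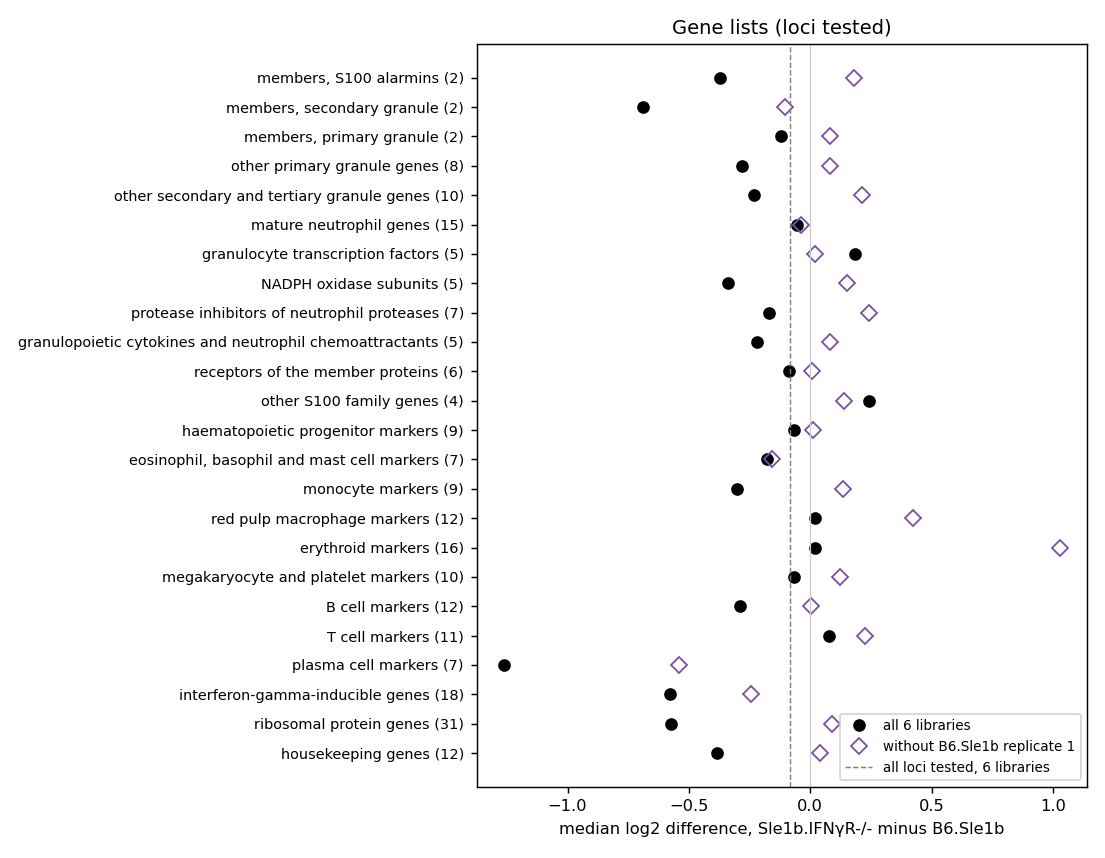
Median log2 difference (Sle1b.IFNγR-/- minus B6.Sle1b) of the tested loci of each fixed gene list, with all libraries (filled) and without B6.Sle1b replicate 1 (open), the number of loci tested in brackets, and the median over all loci as a dashed line at -0.083. The alarmin and secondary granule members move from -0.37 and -0.69 to 0.18 and -0.10 when that library is left out.

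Markers of other cells that share some of these genes were examined beside them. Of 13 monocyte markers 9 were tested, 8 were lower and 1 higher (median -0.30, or 0.13 without B6.Sle1b replicate 1), and their summed scaled count was 256 to 800 in B6.Sle1b and 306 to 332 in Sle1b.IFNγR-/-. Of 11 progenitor markers 9 were tested, 6 were lower and 3 higher (median -0.065, or 0.013 without that library), with sums of 420 to 648 and 402 to 482. Among them the cytokine receptor gene Flt3 had 36.7, 26.3 and 36.6 against 15.7, 15.7 and 22.8, without overlap (log2 difference -0.85, limma adjusted p = 0.99976). It was -0.77 without B6.Sle1b replicate 1 and -0.27 with ribosomal scaling. The mean of Flt3, 25.6, also lay below the 95th percentile of the olfactory, vomeronasal and trace-amine receptor genes (36.0). Sox4, the progenitor marker of next smallest p, was higher, with overlapping groups (log2 difference 0.91, SE 0.80). Eosinophil, basophil and mast cell markers, which include relatives of the granule proteins, had 7 of 14 tested, 4 lower and 3 higher (median -0.18, or -0.16 without that library), with sums of 289 to 325 and 261 to 322. The sums of the monocyte, progenitor and eosinophil, basophil and mast cell lists were each highest in B6.Sle1b replicate 1, as were those of the ribosomal protein and housekeeping genes. The basophil protease gene Mcpt8 had 54.0, 55.9 and 64.7 against 38.5, 39.3 and 37.1, without overlap (log2 difference -0.59, SE 0.30, limma adjusted p = 0.99976). It was -0.64 without B6.Sle1b replicate 1 and 0.0022 with ribosomal scaling. Epx, next in that list, overlapped between the groups (log2 difference -0.43, SE 0.34, or 0.15 with ribosomal scaling). The part of these cell types in the values of the members was not tested.

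Genes with a profile like that of the members were named by a fixed rule, as a description over 6 libraries. Among 3931 loci with a mean of at least 50, the closest to S100a8 by Pearson's r were Nup153 (0.984), Elf2 (0.982), Rnf41 (0.979), Mdc1 (0.977) and Dclre1c (0.974). The closest to the mean of Mpo and Ctsg were Zkscan8 (0.993), Ndrg1 (0.991), Mbnl3 (0.980), Myh11 (0.964) and Tpcn2 (0.959). None of these 10 genes was in the neutrophil lists. The points share library depth and scaling.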

How the data were processed

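RNA from imiquimod-treated spleens was sequenced in 6 libraries, 3 B6.Sle1b and 3 Sle1b.IFNγR-/-, grouped by their labels. Libraries were made from total RNA with the Ovation RNA-seq System V2, per the labels' protocols. CASAVA, TopHat2 2.0.9, Cufflinks 2.2.1 and the build GRCm38 are named per the submitters' processing notes. The deposited signal is a fragment count per locus, scaled by the authors between libraries by quartiles, per the file's name and header. In each library 99.8% of values above 0 fell, within 0.01, on multiples of a common step, read here as 1 fragment, which gave 4394283 to 6349828 fragments per library. No source used here gives the strand setting or filters. The table repeats loci over 1530481 rows, which reduced to 426574 loci, 44794 of them with a gene name. Another 24 per-sample columns of the table were not used.

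The genotype difference was fitted with limma 3.58.1 (R 4.3.3, trend) on log2(value + 1) over 19227 named loci whose mean reached 10, with Benjamini-Hochberg adjustment and a threshold of 0.05. A fold change on that scale understates the change of low genes. Ratios, sums and shares were compared by two-sided exact permutation tests (scipy 1.17.1), in which 3 against 3 libraries cannot go below p = 0.1. Poisson intervals (95%) cover counting error only. The code was tested on simulated data. The 10 members, Ifngr1 and Ifngr2 were always named. So were, of each other list, up to 2 tested genes of smallest p. The 5 loci of highest r with S100a8 and with the mean of Mpo and Ctsg were named too. Of 308 list entries, 302 matched a locus name. Exons and positions came from GENCODE release 21, and promoters from RefSeq GRCm38.p6. One further motif of the plan is not reported here. The members and gene lists were chosen with earlier results of these data known. Alternatives covered scaling, filter, pseudocount, a robust trend, a covariate, a replicate block, summing over loci and leaving out each library.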

Additional observations from a re-analysis of the deposited data

How the results depend on the processing

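With alternative settings, 0 of the 6 tested members passed limma's adjusted p under 0.05, and their adjusted p ranged from 0.478 (Ngp) to 0.99988. Over all loci the count called was 0 with every library and every scaling, filter and pseudocount run, 8 (4 higher, 4 lower) with the ribosomal level as a covariate, and 0 to 5 when 1 library was left out. The 5 without B6.Sle1b replicate 1 were 3 higher and 2 lower, and the 5 without B6.Sle1b replicate 2 were all lower. The median difference of the members was 0.20 after scaling to ribosomal protein genes, which put the median of all loci at 0.49, and -0.66 to 0.032 when 1 library was left out. Ngp and Lcn2 were below 0 in every alternative that tested them. S100a8 was above 0 at 0.022 (median ratio scaling), 0.023 (upper quartile), 0.54 (ribosomal scaling) and 0.32 (ribosomal covariate). S100a9 was at 0.016 with the covariate, Mpo at 0.46 with ribosomal scaling and 0.080 with the covariate, and Ctsg at 0.49 with ribosomal scaling. When 1 library was left out, S100a8 ranged from -0.37 to 0.32, S100a9 from -1.14 to 0.045, Mpo from -0.51 to 0.14 and Ctsg from -0.41 to 0.066. The difference in the primary to secondary granule ratio ranged from 0.78 to 1.19. Groups that separate with all libraries stay separate when 1 is left out. The exact permutation p of 0.2, the smallest that 2 against 3 libraries allow, was therefore fixed in advance. Leaving out libraries does not test how far the separation rests on Camp, Ltf, Elane and Prtn3, which hold few fragments. For Mpo and Ctsg over Ngp and Lcn2 the groups overlapped. The difference was 0.57 (exact permutation p = 0.3), or 0.18 without B6.Sle1b replicate 1. The number of members whose share separated the groups was 0 to 2, and it was 2 without B6.Sle1b replicate 2. Such separations of 2 against 3 libraries can arise without a genotype effect. The difference in share, in percentage points, ranged from -0.291 to 5.32 for S100a8, -4.23 to 0.0743 for S100a9, -0.753 to 0.400 for Elane, -0.354 to 2.40 for Prtn3 and -1.37 to 6.16 for Ctsg. The cause of these changes was not tested. A filter at a mean of 50 left Mpo and Ctsg alone.

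Replicate numbers gave no sign of a pairing. After each group's mean was subtracted from every locus, the deviations of same-numbered libraries correlated at 0.012, -0.027 and -0.011. Those of differently numbered libraries correlated at -0.034 to 0.045. With 3 libraries in each group these values cannot decide whether the libraries were paired. With the replicate number as a block 0 loci were called (567 at unadjusted p under 0.05, against 596), and the member differences kept their values. The granule ratio difference was 1.00 and that of S100a8 to S100a9 was 0.63. Both had an exact permutation p of 0.25, the smallest 3 pairs allow. For the granule ratio the separation with all libraries fixed this p in advance. The share of 1 member, Lcn2, was lower in the receptor-deficient library of every same-numbered pair. Count-based tests were not run, because the deposited values are scaled and the fragments read from their steps were not taken as raw counts. Depth limits Camp, Elane, Prtn3 and Ltf, which held 9 to 63 fragments each over the 6 libraries.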

Other observations

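Of 18 tested interferon-γ-inducible loci, 14 were lower and 4 higher in Sle1b.IFNγR-/-, with 0 passing limma's adjusted test and a median log2 difference of -0.58, or -0.24 without B6.Sle1b replicate 1 and -0.0028 with ribosomal scaling, which put the median of all loci at 0.49. Cxcl9, a chemokine induced by interferon-γ, was at 207, 46.0 and 67.5 scaled counts in B6.Sle1b, against 6.12, 15.7 and 7.19 in the receptor-deficient libraries, with no overlap (log2 difference -3.14, or -2.56 with ribosomal scaling). Psmb9, next in that list, was lower with overlapping groups (-1.59, or -0.88 without B6.Sle1b replicate 1). All 7 tested plasma cell loci were lower (median -1.26, or -0.54 without B6.Sle1b replicate 1 and -0.66 with ribosomal scaling), with 0 passing.

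Erythroid markers had 8 of 16 tested loci lower and 8 higher (median 0.019), and a median of 1.03 without B6.Sle1b replicate 1 and 0.63 with ribosomal scaling. Their summed scaled count was 4337 in that library and 414 to 1319 in the other 5. Red pulp macrophage markers had 5 of 12 lower and 7 higher (median 0.018, or 0.42 without it and 0.62 with ribosomal scaling).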
